A study of Mus musculus with 12 samples.

Results

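Genes of inherited ataxias other than SCA1 were followed in the cerebellum of SCA1 mice. They are 9 mouse genes whose human counterparts are mutated in other spinocerebellar ataxias (SCAs) or in dentatorubral-pallidoluysian atrophy. They are defined by this disease role and are 9 of the 56941 genes in the count tables. All 9 passed the filter on low counts, which left 20341 genes to test. Cerebellar RNA was sequenced from 12 mice at 16 weeks of age, with 3 mice in each of 4 groups that crossed genotype (WT or SCA1) with activity (sedentary or exercise). SCA1 mice were heterozygous Atxn1 knock-ins, with a long expanded CAG repeat in the mouse's own Atxn1 gene on one allele in every cell and the 2Q wild-type repeat on the other, and WT mice were C57BL/6J littermates of both sexes. Exercise mice lived alone with a free running wheel from 4 weeks of age, for 12 weeks, while sedentary mice were housed in groups without one, so wheel running and solo housing cannot be told apart. Per the paper, the wheels were taken away days before behavioural testing, and tissue of all mice was collected after the last test.

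Inherited ataxias share a loss of coordination that follows from failing cerebellar circuits, and Purkinje cells, the output neurons of the cerebellar cortex, are damaged in many of them. Some are caused by a CAG repeat that lengthens a run of glutamines in the protein, as in SCA1 itself. Others come from long repeats inside introns or from conventional mutations in enzymes and channel partners. The polyglutamine genes studied here are Atxn2 (SCA2), which encodes an RNA-binding protein of the cytoplasm, Atxn3 (SCA3), a deubiquitinase, Atxn7 (SCA7), a subunit of the SAGA chromatin complex, Tbp (SCA17), the TATA-binding protein of the transcription machinery, and Atn1, the transcriptional corepressor atrophin-1 of dentatorubral-pallidoluysian atrophy. Atxn10 (SCA10) and Fgf14 (SCA27) can carry expanded repeats in an intron, and Fgf14 encodes an intracellular partner of voltage-gated sodium channels. Afg3l2 (SCA28) is a protease subunit of the inner mitochondrial membrane, and Ttbk2 (SCA11) is a kinase needed to build primary cilia.

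Shown here is the longest glutamine run that 4 of the polyglutamine genes encode in the mouse reference genome. In that reference these genes do not hold the long repeats of the human diseases. The repeats of the mice sequenced were not examined, so differences in these data concern level only. Each sequence is the coding strand of GRCm39 read from the GENCODE M39 coding sequence, and capitals mark the glutamine codons (CAG or CAA) between flanking codons in lower case. A run is the longest anywhere in the protein and need not lie where the human repeat lies. The runs are at chr5:121948994-121949032 (plus strand), chr12:101892807-101899240 (minus strand, across an exon junction), chr14:8456578-8456622 (minus strand) and chr17:15724638-15724706 (plus strand), in the order printed.
Atxn2: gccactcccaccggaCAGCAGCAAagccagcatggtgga
Atxn3: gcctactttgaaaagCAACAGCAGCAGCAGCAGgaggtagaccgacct
Atxn7: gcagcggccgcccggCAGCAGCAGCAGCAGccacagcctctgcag
Tbp: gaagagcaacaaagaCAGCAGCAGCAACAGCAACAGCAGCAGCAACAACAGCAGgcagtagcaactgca

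Of these 4 genes, Tbp had the longest run, of 13 codons, made of 9 CAG and 4 CAA. Atxn3 followed with 6 and Atxn7 with 5, while Atxn2 had 3. In the introns of the canonical Atxn10 transcript, which span 125.0 kb, no ATTCT unit, the motif of human SCA10, was followed directly by another on the coding strand. In the 211.4 kb of introns of the canonical Fgf14 transcript, the longest uninterrupted run of GAA was 3 units and occurred 3 times. GAA is the motif of the intronic Fgf14 expansion in patients. Much of the Fgf14 gene, which spans 703.3 kb, lies outside that transcript and was not searched. Whether the searched introns hold the site of the human expansion was not examined. All these runs are properties of the reference genome and not of the mice sequenced. On GRCm39, Atxn2 lies at chr5:121849400-121954556, Atxn3 at chr12:101885157-101924512, Atxn7 at chr14:8362441-8508505, Tbp at chr17:15720150-15748641 and Atn1 at chr6:124719507-124733994. Atxn10 lies at chr15:85213498-85348594, Fgf14 at chr14:124211258-124914539, Ttbk2 at chr2:120563297-120681085 and Afg3l2 on chromosome 18. The counts cover the exons of all annotated transcripts of each gene together.

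The libraries held between 20556802 and 32127508 counted read pairs on the reverse strand, the strand used here. All 8 Purkinje cell and 7 granule cell markers examined were at 1 CPM (counts per 1000000 normalized counts) or more in every library. The libraries of mice 16 (SCA1 sedentary) and 55 (SCA1 exercise) stood apart: 6.33 to 6.38% of their read pairs mapped to several places, against 2.08 to 3.46% in the other 10 libraries. Their summed brainstem Hox markers were 29 and 35.8 CPM against 0 to 2.26 CPM in the others, their oligodendrocyte markers 6454 and 5209 CPM against 2311 to 3868 CPM, and their granule cell markers 2702 and 3249 CPM against 4552 to 5277 CPM. The summed Purkinje cell markers ranged from 7083 to 7959 CPM in WT sedentary, 7442 to 7919 CPM in WT exercise, 4241 to 5761 CPM in SCA1 sedentary and 5750 to 7013 CPM in SCA1 exercise libraries. In bulk tissue, fewer cells of a type and less RNA per cell cannot be told apart. A pair of the RNA samples did not reach the RNA integrity score of the others and was prepared with other fragmentation and amplification settings, but the sources used here do not name those mice. Atxn1 itself did not separate the genotypes by level, at 153 ± 8.28 CPM (SD, n = 3) in WT sedentary and 172 ± 17.9 CPM in SCA1 sedentary mice, and these counts do not tell its alleles apart.

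None of the 9 ataxia genes was a DEG in any of the 8 comparisons made, where a DEG had an adjusted p under 0.05 in edgeR's quasi-likelihood test and an absolute log2 fold change (log2FC) over 0.5. Sedentary SCA1 mice set against sedentary WT mice gave 0 of 9, beside 0.0344% of all genes tested, and SCA1 against WT mice over both activity groups gave 0 of 9, beside 0.118% of all genes. The remaining 6 comparisons gave 0 of 9 beside 0% of all genes: exercise with sedentary mice within each genotype and over both, SCA1 exercise mice with either WT group, and the interaction of genotype and exercise. These shares belong to the edgeR fit used here. With DESeq2, the paper reported DEGs for exercise in WT mice, and more than found here between sedentary SCA1 and WT mice. An unadjusted p under 0.05 was reached by 0 of 9 members in each of the 8 comparisons. Of all genes, 10.1% reached it between sedentary SCA1 and WT mice, 9.81% between SCA1 and WT mice over both activity groups, 4.69% for exercise in WT mice, 2.17% for exercise in SCA1 mice and 3.54% for exercise over both genotypes. The share was 2.93% for SCA1 exercise with WT exercise mice, 4.21% for SCA1 exercise with WT sedentary mice and 3.78% for the interaction. DESeq2 also called 0 members in each comparison, and the share of all genes that it called is not given here. The pairwise comparisons share groups, so they are not independent of one another.

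The 95% intervals show how large a difference these data would still allow. Over both activity groups, the interval of the SCA1 against WT log2FC lay within 0.5 in either direction for 7 members, and over both genotypes the interval of the exercise log2FC did so for 8. In SCA1 sedentary against WT sedentary mice this held for 6 members, with Tbp, Atn1 and Fgf14 the exceptions. For the interaction it held for 3 members, and for the remaining 6 the data with 3 mice a group do not exclude an exercise response that differs between the genotypes by more than 0.5. The median absolute log2FC of the 9 members in SCA1 sedentary against WT sedentary mice was 0.07, beside 0.18 over all genes tested. The genes tested were not matched to the members for level or spread, so these values do not show the members to be unusually stable.

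**Figure D1:**
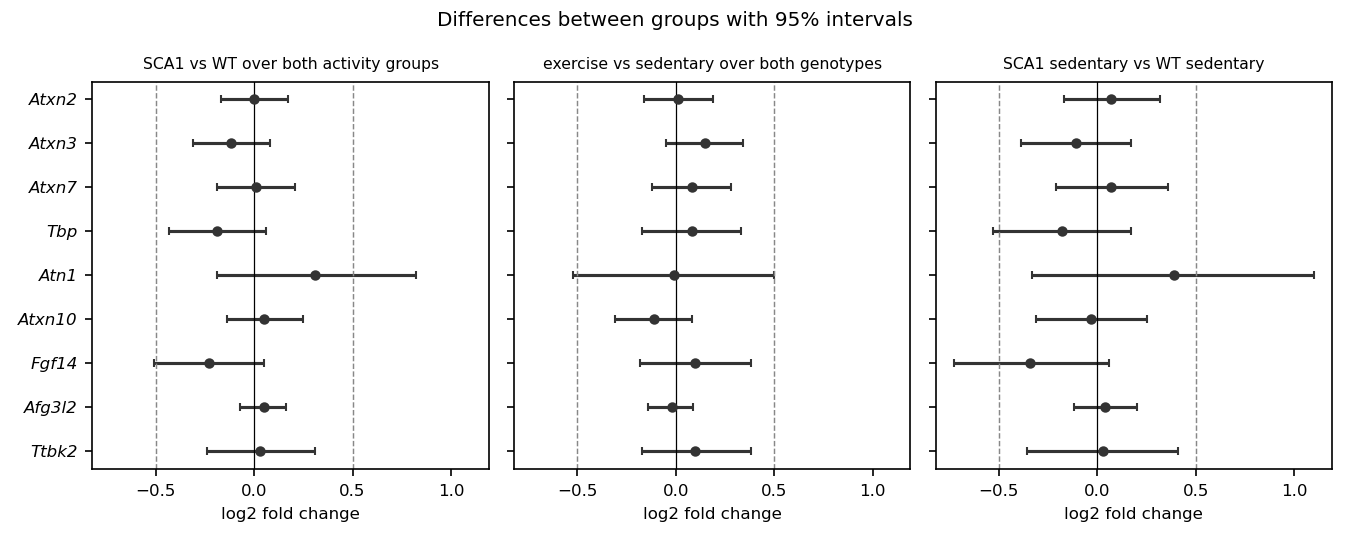
Log2 fold change (horizontal axis) of each of the 9 genes (vertical axis) in SCA1 against WT over both activity groups, exercise against sedentary over both genotypes, and SCA1 sedentary against WT sedentary mice. Points are edgeR estimates, bars are 95% intervals, and dashed lines mark a log2FC of -0.5 and 0.5. Every interval includes 0, and the widest in each panel belongs to Atn1.

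Among the polyglutamine genes, Atxn2 was measured at 148.4, 154.2 and 163.1 CPM in WT sedentary, 155.7, 174.8 and 163.7 CPM in WT exercise, 133.3, 184.2 and 173.1 CPM in SCA1 sedentary, and 151.1, 158.3 and 160.5 CPM in SCA1 exercise mice. Both its lowest and its highest library were SCA1 sedentary mice, and all 4 groups overlapped. The log2FC of Atxn2 was 0.07 (SE 0.11) in SCA1 sedentary against WT sedentary mice, with a 95% interval from -0.17 to 0.32 and an edgeR adjusted p of 0.861. Without mice 16 and 55 this value was 0.22, with an edgeR adjusted p of 0.143. Exercise against sedentary over both genotypes gave 0.01 (SE 0.08).

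Atxn3 was the lowest in CPM of the members other than Atn1. Its levels were 26.1, 26.3 and 22.8 CPM in WT sedentary, 25.8, 30.4 and 27.4 CPM in WT exercise, 23.1, 19.9 and 26.7 CPM in SCA1 sedentary, and 24.1, 27.9 and 24.9 CPM in SCA1 exercise mice. The groups overlapped, with the lowest value in an SCA1 sedentary and the highest in a WT exercise mouse. The log2FC of Atxn3 was -0.12 (SE 0.09) in SCA1 against WT mice and 0.15 (SE 0.09) in exercise against sedentary mice, with edgeR adjusted p values of 0.68 and 0.945. The latter had the lowest unadjusted p of the 9 members in the exercise comparison, at 0.128.

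Atxn7 was one of a pair of members whose groups did not overlap in a comparison. It was at 61.5, 63.8 and 62.4 CPM in WT sedentary, 69.5, 70.1 and 67.5 CPM in WT exercise, 50.9, 72.8 and 74.1 CPM in SCA1 sedentary, and 59.3, 73.6 and 66.9 CPM in SCA1 exercise mice. All 3 WT exercise mice lay above all 3 WT sedentary mice, whereas the SCA1 groups each spanned both. In that WT comparison the log2FC was 0.14 (SE 0.13, 95% interval -0.15 to 0.43), with an edgeR adjusted p of 0.958 and a two-sided exact permutation p of 0.1, the smallest that 3 against 3 mice can give. Groups that did not overlap, in either direction, were found for 2 of the 9 members in this comparison and for 21.2% of all genes. In the other comparisons of groups, 0 of 9 members did so, beside 11.4% of all genes for sedentary SCA1 with sedentary WT mice, 4.5% for exercise in SCA1 mice, 14.2% for SCA1 exercise with WT exercise mice, 10.3% for SCA1 exercise with WT sedentary mice, 1.17% for SCA1 with WT mice over both activity groups and 0.128% for exercise over both genotypes. In SCA1 sedentary against WT sedentary mice the log2FC of Atxn7 was 0.07 (SE 0.13) with all 12 libraries and 0.25 without mice 16 and 55, where the edgeR adjusted p was 0.119, the lowest of any member under any setting tried.

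Tbp stood at 60.7, 66.6 and 52.3 CPM in WT sedentary, 67.7, 63.3 and 59.5 CPM in WT exercise, 43.3, 48.6 and 66.7 CPM in SCA1 sedentary, and 47, 62.7 and 57.2 CPM in SCA1 exercise mice. The lowest values were those of mice 16, 55 and 194, all SCA1 mice, but SCA1 sedentary mouse 195 matched the highest WT libraries. In SCA1 against WT mice over both activity groups the log2FC of Tbp was -0.19 (SE 0.11, 95% interval -0.43 to 0.06), with an edgeR adjusted p of 0.605 and an exact permutation p of 0.12 over 400 divisions. It was -0.06 without mice 16 and 55. Between 16.2 and 22.4% of the stranded read pairs assigned to Tbp were on the opposite strand, where exons of Pdcd2 cover 42.66% of its exon bases; those pairs do not enter the reverse-strand counts.

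Atn1 was counted poorly and its values are uncertain. It received 90 to 246 read pairs per library. Of its exon bases, 73.58% are shared on the same strand with the annotated gene Gm45234, which itself received 13 to 35 read pairs, and STAR leaves pairs that overlap both genes uncounted. Its levels were 4.01, 5.55 and 6.38 CPM in WT sedentary, 5.21, 4.88 and 6.51 CPM in WT exercise, 6.74, 9.17 and 4.86 CPM in SCA1 sedentary, and 9.76, 3.75 and 6.13 CPM in SCA1 exercise mice. Its lowest and highest libraries were both SCA1 exercise mice, 2.6-fold apart. The log2FC of Atn1 in SCA1 sedentary against WT sedentary mice was 0.39 (SE 0.33), and its 95% interval, from -0.33 to 1.10, was the widest of the members, with an edgeR adjusted p of 0.722. It was 0.12 without mouse 194, the highest SCA1 sedentary library, 0.58 without mouse 195, the lowest, and -0.02 with bands of mouse numbers as a covariate. These bands are partly confounded with genotype, since mice 16 and 55, both SCA1, form a band of their own.

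**Figure D2:**
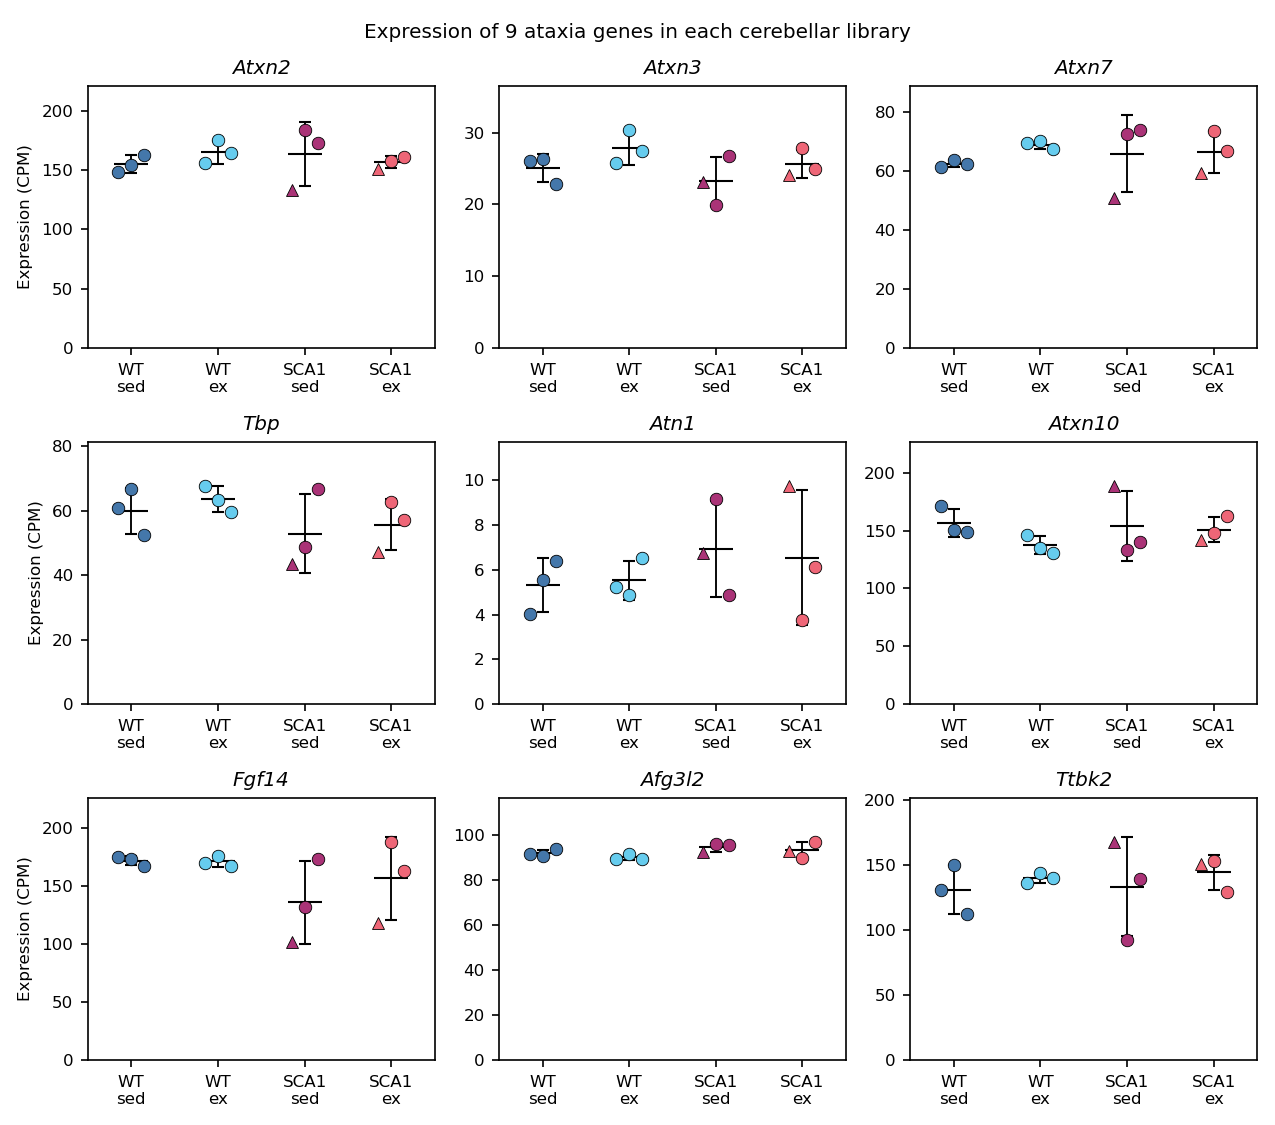
Expression in CPM (vertical axes, each from 0) of the 9 genes in the 12 libraries by group (sed, sedentary; ex, exercise). Points are single mice, triangles are mice 16 and 55, and black bars are the mean ± SD of 3 mice. The SCA1 sedentary group has the largest SD of the 4 groups for every gene but Atn1 and Afg3l2, and mouse 16 is its lowest for Atxn2, Atxn7, Tbp and Fgf14.

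Of the genes with intronic repeats in patients, Fgf14 had the lowest unadjusted p of the members in both comparisons of SCA1 with WT mice named above. Fgf14 was at 175, 173 and 167 CPM in WT sedentary and 170, 176 and 167 CPM in WT exercise mice. In SCA1 sedentary mice it was at 102, 132 and 173 CPM and in SCA1 exercise mice at 118, 188 and 163 CPM. The 6 WT libraries lay within a narrow band, SCA1 mice 16, 55, 194 and 198 lay below all of them, mouse 195 lay inside the band and mouse 122 above it. In SCA1 sedentary against WT sedentary mice the log2FC of Fgf14 was -0.34 (SE 0.18, 95% interval -0.73 to 0.06), with an edgeR adjusted p of 0.566 and an exact permutation p of 0.3. Over both activity groups the log2FC was -0.23 (SE 0.13), with an edgeR adjusted p of 0.572 and an exact permutation p of 0.14.

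The 2 lowest Fgf14 libraries were mice 16 and 55, those with the highest oligodendrocyte and brainstem marker levels and the lowest granule cell marker levels; their part in the Fgf14 values was not tested, but without both mice the log2FC was -0.15 in SCA1 sedentary against WT sedentary mice and -0.05 over both activity groups, with edgeR adjusted p values of 0.45 and 0.848. Leaving out mouse 195 instead, the SCA1 sedentary library inside the WT band, gave -0.56 between the sedentary groups (unadjusted p 0.0115, edgeR adjusted p 0.186) and -0.35 over both activity groups. Fgf14 also had the largest interaction estimate of the members, at 0.21 (SE 0.26, 95% interval -0.35 to 0.77), which ranged from 0.03 to 0.42 when 1 mouse was left out. Exons of Itgbl1 on the opposite strand cover 51.5% of the Fgf14 exon bases, and 0.165 to 0.606% of stranded pairs assigned to Fgf14 were on that strand.

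Atxn10, which encodes a cytoplasmic protein linked to neuronal survival, was at 171, 151 and 149 CPM in WT sedentary, 146, 135 and 131 CPM in WT exercise, 189, 133 and 140 CPM in SCA1 sedentary, and 142, 148 and 163 CPM in SCA1 exercise mice. All 3 WT exercise mice lay below all 3 WT sedentary mice, the second case without overlap in that comparison, and mouse 16 was the highest library. The WT exercise log2FC was -0.20 (SE 0.13, 95% interval -0.47 to 0.08), with an edgeR adjusted p of 0.958 and an exact permutation p of 0.1. In SCA1 mice the same contrast gave -0.03 (SE 0.13), and the difference between these responses, tested as the interaction, was 0.17 (SE 0.18) with an edgeR adjusted p of 1. Without mice 16 and 55 the SCA1 contrast had the other sign, at 0.18 (edgeR adjusted p 0.57), as it had without mouse 16 alone, at 0.14, and without mouse 55 alone, at 0.03, and the interaction was 0.37, with an unadjusted p of 0.00735 and an edgeR adjusted p of 0.216.

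Among the genes with conventional mutations, Afg3l2 was the steadiest member. It was at 91.5, 91 and 93.8 CPM in WT sedentary, 89.7, 91.5 and 89.6 CPM in WT exercise, 92.4, 96.2 and 95.6 CPM in SCA1 sedentary, and 93.1, 90.1 and 97.2 CPM in SCA1 exercise mice. Its highest library was 1.09-fold its lowest, mice 16 and 55 were not apart, and its within-group SD of 0.03 on the log2 scale was larger than that of only 0.0787% of all genes tested. In SCA1 against WT mice over both activity groups the log2FC of Afg3l2 was 0.05 (SE 0.05, 95% interval -0.07 to 0.16), with an edgeR adjusted p of 0.784. The exact permutation test of the same difference gave an unadjusted p of 0.04 over 400 divisions, 1 of 9 members tested in this way in that comparison; edgeR's unadjusted p was 0.394, from a spread that edgeR moderates towards that of genes at a like level.

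Ttbk2 was at 131, 150 and 112 CPM in WT sedentary, 136, 144 and 140 CPM in WT exercise, 168, 92.6 and 139 CPM in SCA1 sedentary, and 151, 153 and 129 CPM in SCA1 exercise mice. Its highest and lowest libraries, mice 16 and 194, were both SCA1 sedentary mice, 1.82-fold apart. The log2FC of Ttbk2 was 0.03 (SE 0.18) in SCA1 sedentary against WT sedentary mice, with an edgeR adjusted p of 0.975, and -0.16 without mice 16 and 55. On the same strand, 24.74% of its exon bases are shared with Cdan1, and pairs within that stretch were not counted for either gene.

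**Figure D3:**
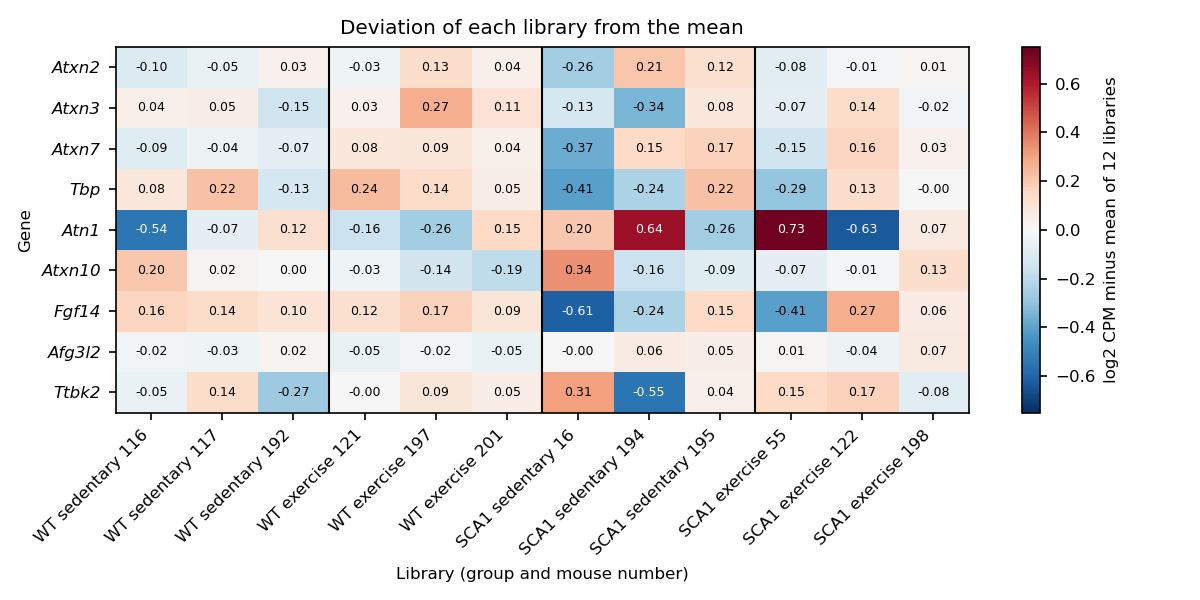
Deviation of the log2 CPM of each gene (rows) in each library (columns, by group and mouse number) from its mean over the 12 libraries, with red above and blue below the mean. Fgf14, Tbp and Atxn7 are lowest in mouse 16, where Atxn10 and Ttbk2 are highest, and Afg3l2 is near 0 in every library.

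Members differed in their spread among mice of one group. The within-group SD of log2 CPM was 0.14 for Atxn2 and Atxn3, 0.16 for Atxn10, 0.17 for Atxn7, 0.22 for Tbp, 0.25 for Ttbk2, 0.26 for Fgf14 and 0.46 for Atn1, beside a median of 0.27 over all genes tested. The largest typical deviation was in SCA1 sedentary mouse 16, where the median absolute deviation of the 9 members from their means was 0.31, beside 0.35 for all genes. Mouse 194, which was not among the libraries that stood apart, came next with 0.24, beside 0.22 for all genes. In mouse 16 the members did not move one way: Fgf14 deviated by -0.61 and Atxn10 by 0.34.

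Levels per length ordered the genes differently from CPM. Per kb of merged exons, Atxn10 had the highest mean level at 21.5 CPM per kb, in the range 18.8 to 27.1 over the 12 libraries, followed by Fgf14 at 19 (12.2 to 22.5). Atxn2 (8.5 to 11.7) and Ttbk2 (6.72 to 12.2) came next with means of 10.2 and 9.96, then Afg3l2 at 6.68, Atxn7 at 5.77, Atxn3 at 4.07, Tbp at 3.73 and Atn1 at 1.15. Neighbours in this order overlapped in their ranges, except Fgf14 and Atxn2, and Tbp and Atn1. Atxn10 was above 93.5% of the genes tested and Atn1 above 31%. The levels of Atn1 and Ttbk2 leave out pairs within exon bases shared with another gene on the same strand. Those bases, 73.58% for Atn1 and 24.74% for Ttbk2, still count in the merged length. Both genes may therefore be placed too low, and the order of Atxn2 and Ttbk2 is uncertain. With the longest transcript as the length, Atxn2 at 23 passed Fgf14 at 20.5 CPM per kb, and Afg3l2 at 18.3 passed Ttbk2 at 12.3.

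**Figure D4:**
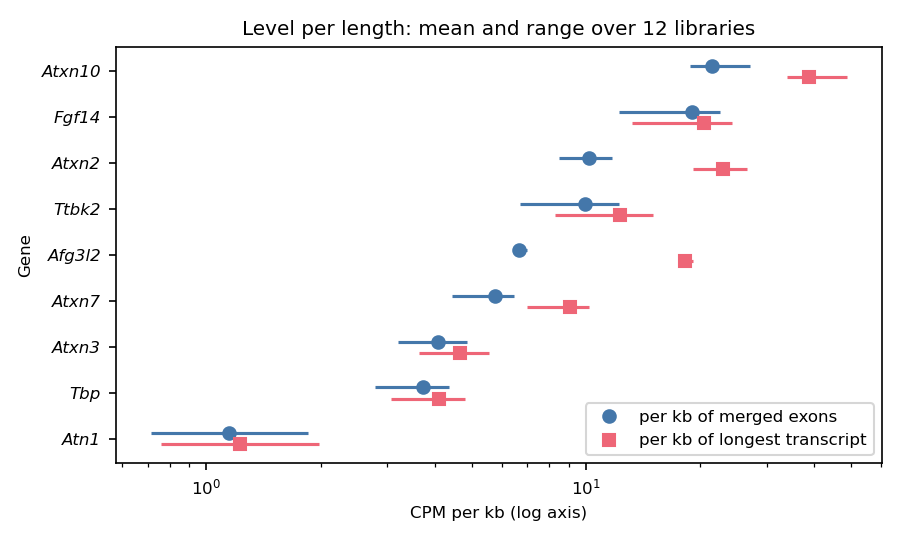
Level of each gene as CPM per kb (log axis) per length of merged exons and of the longest transcript. Points are means and lines the range over the 12 libraries, with Atxn10 highest and Atn1 lowest by either length.

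The members differed in which genes they followed across the 12 libraries. Among 16976 genes, the log2 CPM of Fgf14 was most alike to that of Agtpbp1 (Pearson r 0.987, n = 12) and St18 (0.983), Atxn2 to Acin1 (0.981) and Ciz1 (0.977), Atxn7 to Ylpm1 (0.975) and Chd2 (0.970), and Tbp to Hnrnpll (0.974) and Carf (0.974). For Atxn10 these were Ndufs3 (0.971) and Smim7 (0.952), for Ttbk2 Fzd3 (0.966) and Gm20300 (0.963), for Atxn3 Sec63 (0.953) and Zfp113 (0.943), for Afg3l2 Arhgef25 (0.906) and Ctsf (0.892), and for Atn1 Coro6 (0.898) and Pdzd7 (0.886). These are descriptions of libraries that share groups, depth and preparation, and the highest of many values. Among the 36 pairs of members, r ranged from -0.816 to 0.896 and was positive in 18. The highest was between Tbp and Fgf14, at 0.752 over the 10 libraries without mice 16 and 55. Several other pairs depended on those mice: without them r went from -0.100 to 0.892 for Fgf14 and Ttbk2, from 0.430 to -0.602 for Atxn2 and Fgf14 and from 0.690 to -0.141 for Atxn7 and Fgf14, and the highest was 0.923, for Atxn3 and Ttbk2.

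A wider list held 40 other ataxia genes, of which 39 passed the filter. It gave 0 DEGs in each of the 8 comparisons, beside 0.118% of all genes or less. Between sedentary SCA1 and WT mice, 13 were above and 26 below 0, with a median log2FC of -0.07 beside 0.02 for all genes tested. An unadjusted edgeR p under 0.05 was reached by 7 of the 39, beside 10.1% of all genes. Among the genes with the lowest p there were Coq8a, a kinase-like protein of coenzyme Q synthesis (log2FC -0.39, SE 0.10, edgeR adjusted p 0.242), and Ccdc88c, a regulator of Wnt signalling (0.49, SE 0.15, 0.296). Over both activity groups 9 of 39 had an unadjusted p under 0.05, beside 9.81% of all genes. Coq8a (-0.28) and Itpr1 (-0.33), the calcium release channel of Purkinje cells, were among the lowest in p. Itpr1 is also one of the 8 Purkinje cell markers whose sum was lower in every SCA1 sedentary than in every WT library, and it alone made up 60.8 to 65.8% of that sum in WT sedentary mice. The other 7 markers summed to 1488 to 1829 CPM in SCA1 sedentary and 2472 to 2960 CPM in WT sedentary mice, a sum without Itpr1 that was added after seeing the data. The part of those markers' level in the values of the list was not tested. For exercise over both genotypes 1 of 39 had an unadjusted p under 0.05, beside 3.54% of all genes. This gene was Stub1, a ubiquitin ligase (-0.17, SE 0.07, edgeR adjusted p 0.945), followed by Nop56 (-0.13) and Atm (0.15).

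Relatives of the members also gave 0 DEGs among the 16 of 17 that were tested. The median log2FC of the relatives between sedentary SCA1 and WT mice was 0.08, beside 0.02 for all genes tested, with 9 above and 7 below 0. In that comparison 2 of 16 had an unadjusted p under 0.05, beside 10.1% of all genes. They were Ttbk1, the paralog of Ttbk2 (log2FC 0.40, SE 0.12, edgeR adjusted p 0.296), and Fgf12, of the Fgf14 family (-0.22, SE 0.10, 0.478). Fgf13 of the same family followed at 0.54 (SE 0.27, 0.53). For exercise the lowest p among the relatives were those of Atxn7l3 (-0.20), Ttbk1 (-0.08) and Spg7 (-0.07), the partner subunit of Afg3l2 in its protease.

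Genes of known protein partners, such as TFIID subunits for Tbp, SAGA subunits for Atxn7 and sodium channels for Fgf14, gave 0 DEGs among 38 of 39 tested. Between sedentary SCA1 and WT mice 14 were above and 24 below 0, with a median log2FC of -0.07 beside 0.02 for all genes tested. Those with the lowest p were the scaffold protein Magi1 (log2FC 0.29, SE 0.09, edgeR adjusted p 0.31), Baiap2 (-0.40, SE 0.16, 0.452), both reported to bind atrophin-1, and Taf7 (-0.28, SE 0.16, 0.578), a TFIID subunit. Between the sedentary groups 2 of 38 had an unadjusted edgeR p under 0.05, beside 10.1% of all genes. Over both activity groups Magi1 was at 0.23, Baiap2 at -0.36 and the SAGA acetyltransferase Kat2a at 0.17. In that comparison 3 of 38 had an unadjusted p under 0.05, beside 9.81% of all genes. For exercise, Phb2 was at a log2FC of -0.15 and Kat2a at -0.12, and each had an edgeR adjusted p of 0.945. DESeq2 called 0 genes of these 3 lists in any comparison, and the share of all genes that it called is not given here.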

How the data were processed

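Cerebellar RNA of 12 mice was depleted of rRNA, made into directional libraries and sequenced in pairs. Per the labels, the authors used FastQC 0.11.9, fastp 0.24.0 and STAR 2.7.10a with GRCm39, and each deposited table gives whole-number counts of pairs for every gene, without regard to strand and by strand, not normalized. The annotation release is not given in the sources used here; 56323 of 56941 gene IDs matched GENCODE M39, which supplied symbols, lengths and coding sequences. Protein sequences were not used here.

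From the deposited reverse-strand counts, genes were filtered (filterByExpr) and normalized (TMM) in edgeR 4.0.16 under R 4.3.3, and one quasi-likelihood model of the 4 groups was fitted to all 12 libraries with Benjamini-Hochberg adjustment over 20341 genes. CPM values were scaled by TMM, and a prior count of 2 was added for log2 CPM. SEs were the absolute log2FC over the root of the F statistic, with 95% t intervals. Each member was further tested by exact permutation (two-sided) over 20 divisions, or 400 divisions within strata (smallest p 0.005). Sex did not enter the model. Alternatives were DESeq2 1.42.0, RLE factors, other filters (at least 1 count in all, or 10 in every library), unstranded counts, fits of the compared groups alone, bands of mouse numbers as a covariate, mice 16 and 55 left out, and each mouse left out. The bands were mice 16 and 55, mice 116 to 122, and mice 192 to 201. The first band held SCA1 mice only and the second no SCA1 sedentary mouse, so the covariate is partly confounded with genotype. It also overlaps with leaving out mice 16 and 55.

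The members and lists were chosen with earlier results of these data known. Named genes were all members, Atxn1, of each list any gene called plus the 3 of lowest unadjusted p in 3 comparisons, and the 2 genes most alike to each member with an average log2 CPM of at least 0. A few items that this rule or the sequence search gave are not reported here. The largest share of tested genes with equal counts in a pair of libraries was 2.17%; no pair looked like 1 library counted as 2. The labels do not say more of the replicates than 1 mouse each, and p-values measure the spread between mice.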

Additional observations from a re-analysis of the deposited data

Results flagged for a closer look

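One value outside the counts used for the comparisons was above its level in the control mice. On the strand opposite to the gene, Atxn10 had on average 0.215% of its stranded read pairs in SCA1 sedentary mice (0.159 to 0.28%, from 5 to 15 read pairs per library) against 0.0252 to 0.0921% in WT sedentary mice (1 to 5 read pairs). The difference was not tested, it rests on few read pairs, and the SCA1 exercise mice ranged from 0 to 0.251%. The highest shares were those of mice 16 (0.28%, 15 read pairs) and 55 (0.251%, 9 read pairs), the libraries that stood apart. How many of all genes show such a gap is not given here. Shares below every WT sedentary library also occurred, and on more read pairs: Atxn2 in SCA1 sedentary mice (3.82 to 5.56% against 6.06 to 6.81%, from 150 to 320 read pairs) and Tbp in WT exercise mice (16.4 to 17.3% against 19.3 to 20.9%). For Atn1 this held on 1 to 7 read pairs, with 0.694 to 2.17% in SCA1 exercise and 2.46 to 3.01% in WT exercise against 3.05 to 3.98% in WT sedentary mice.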

How the results depend on the processing

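The count of 0 DEGs among the members held in all 8 comparisons under all alternatives tried, and over 1413 alternative values of single members none was past the threshold, with a lowest edgeR or DESeq2 adjusted p of 0.119 and 27 unadjusted p values under 0.05. The share of all genes called under each alternative is not given here. Several estimates changed sign, some of them under the mouse number bands, which are partly confounded with genotype. With bands of mouse numbers as a covariate, SCA1 sedentary against WT sedentary mice gave 0.04 for Tbp (-0.18 without the covariate) and -0.02 for Atn1 (0.39 without the covariate), and SCA1 against WT mice over both activity groups gave -0.04 for Ttbk2 and, with its sign unchanged, 0.01 for Atn1 (0.31 without the covariate). Without mice 16 and 55, Ttbk2 was at -0.16 and -0.07 in these comparisons, Atxn2 at -0.04 for exercise over both genotypes, and Atxn10 at 0.18 for exercise in SCA1 mice. With every gene of at least 1 count, Atxn2 was at -0.003 in SCA1 against WT mice. The cause was not tested. Leaving out 1 mouse at a time, the log2FC in SCA1 sedentary against WT sedentary mice ranged from -0.03 to 0.20 for Atxn2, -0.02 to 0.23 for Atxn7, -0.20 to 0.05 for Atxn10, -0.18 to 0.22 for Ttbk2, -0.56 to -0.17 for Fgf14, -0.39 to -0.06 for Tbp and 0.12 to 0.58 for Atn1. In SCA1 against WT mice these were, in the same order, -0.05 to 0.06, -0.04 to 0.09, -0.03 to 0.09, -0.07 to 0.13, -0.35 to -0.14, -0.29 to -0.12 and 0.12 to 0.44. For exercise in SCA1 mice Atxn10 ranged from -0.11 to 0.14 and its interaction from 0.09 to 0.34, and for exercise over both genotypes the ranges were -0.05 to 0.06 for Atxn2, -0.00031 to 0.13 for Atxn7 and -0.21 to 0.12 for Atn1. No paired analysis was possible because the groups share no mouse numbers. Atn1 was counted from the fewest read pairs, 90 to 246 a library, and the interaction had the widest intervals of the 8 comparisons.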
